A study of Mus musculus with 170 samples.

Results

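The response of the mouse lung to peat smoke particles labelled as from flaming combustion was compared between 4 h and 24 h after exposure. The libraries were taken by label, as lung libraries of the treatments PeatFlame and Saline at both times. These 4 groups of 6 made 24 of the 170 libraries of the series. The groups, markers and gene lists were chosen with earlier results of these data known. Counts and medians of a list are therefore descriptions, not tests. The animals were female mice of the outbred CD1 stock. Each received 50 µL of saline into the back of the throat, and the exposed animals received particulate matter at 2 mg/mL in it. Every animal thus had the saline and the aspiration, and the exposure was a single deposit of collected particles, not breathed smoke. Each library came from the whole lung tissue of a separate mouse, so the times compare different animals. The contrast of interest subtracts the difference between peat flame and saline at 4 h from the same difference at 24 h. It is called the time change here, and a negative value means that the difference was smaller, or lower, at 24 h. Lung lavage, protein and histology were not analysed here, and in bulk tissue fewer cells of a type and less RNA per cell cannot be told apart.

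The genes described below belong to a few well known programmes. Oxidants and reactive organic compounds release the transcription factor Nrf2, which binds antioxidant response elements and switches on glutathione and thioredoxin genes, while damaged protein releases heat shock factor 1, which switches on the chaperones of the Hsp70 family. Metallothioneins follow the metal-sensing factor Mtf1, and AP-1 proteins such as Fosl1 follow growth factor and stress kinases. Chemokines draw neutrophils and monocytes into the airspaces, and interferon switches on antiviral genes and the chemokine Cxcl10. Neuregulin 1, the product of Nrg1, is a ligand of the ErbB receptor kinases, and in airways it takes part in epithelial repair.

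Total counts were 5.6 M to 6.24 M in saline and 6.86 M to 7.74 M in peat flame libraries at 4 h, so depth did not overlap there. At 24 h they were 5.63 M to 6.67 M and 6.11 M to 8.05 M. Levels are given as CPM, the counts of a gene per 1 M counts of the scaled library. The part of depth in the 4 h differences was not tested. The number of genes with a count was 14108 to 15251 and 15014 to 15628 at 4 h. At 24 h it was 13196 to 15400 in saline and 12145 to 15421 in peat flame, where replicates 1, 2 and 3 had 13746, 13159 and 12145. Those 3 libraries and saline 24 h replicate 2 were the 4 of these 24 libraries below 14000 genes. The main changes without them are given beside the results they touch. All 4 were 24 h libraries, so the fit without them kept every 4 h library. Its 4 h tests differed only through the gene filter, scaling and spread shared by all libraries of a fit. At 24 h it kept replicates 4, 5 and 6 of peat flame. A gene is written as called where the edgeR fit of the 24 libraries called it, and other tools and settings are named. Defining lung markers were high in every group, with a median Sftpc level (a surfactant protein of alveolar type 2 cells) of 3501 to 5812 CPM in the 4 groups and a median Scgb1a1 level (the club cell secretory protein) of 25740 to 35869 CPM. All 4 h libraries were on plate 1, and at 24 h replicate 1 of each group was on plate 1 and the others on plate 2. Within a group every pair of libraries differed in at least 13790 genes, so no library was a repeat of another.

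Nrg1 was the only gene whose time change was called in the edgeR fit of the 24 libraries. In saline lungs its lowest, median and highest levels were 23.1, 32.7 and 46.9 CPM at 4 h. In peat flame lungs at 4 h they were 92.9, 124.9 and 149 CPM. By 24 h saline lungs had 24.7, 32.1 and 39.6 CPM and peat flame lungs 19.5, 25.7 and 37.3 CPM. Every peat flame lung thus exceeded every saline lung at 4 h, and the groups overlapped at 24 h. Over all 13158 genes every peat flame lung was above all saline lungs for 1.03% at 4 h and 0.137% at 24 h, and below them for 0.236% and 0.038%. The log2 difference for Nrg1 was 1.82 ± 0.19 (standard error) at 4 h and -0.27 ± 0.19 at 24 h, where 1 log2 unit is a doubling. The time change of -2.10 ± 0.27 had an adjusted p of 0.000816 (edgeR quasi-likelihood F test with Benjamini-Hochberg adjustment over 13158 genes, n = 6 per group). Nrg1 alone was called at an adjusted p under 0.05, which is 0.0076% of the genes tested. An unadjusted p under 0.05 was found for 497 genes, a smaller share than the 0.05 expected on average if no gene differed. The assay read Nrg1 with 3 probes, and each was higher in peat flame than in saline at 4 h, with median counts of 419 against 80, 372.5 against 69, and 238 against 73.5. At 24 h the same probes had medians of 91.5 against 99.5, 46 against 76.5, and 7.5 against 29. The lowest 24 h count was 0 for the second probe in peat flame and for the third in both groups. Nrg1 was called in each of the 24 fits that left out a library and in the 7 other settings at gene level. None of its probes was called when probes were tested alone (adjusted p = 0.681, edgeR, for the probe with the highest mean count). With each time held to a single plate, so that replicate 1 of both 24 h groups was left out, the time change of Nrg1 was -2.04 ± 0.28 (adjusted p = 0.00407, edgeR). Over the 32 alternatives it ran from -2.23 to -1.78.

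The number of genes called in the time change differed between methods. DESeq2's Wald test called 14 genes, 3 with a positive time change (Camkk1, Ly6i and Gpd1) and 11 with a negative one (Nrg1, Gdnf, Mt2, Rnd1, Hmox1, Srxn1, F3, Hspa1a, Hspa1b, Fosl1 and Radil). With all lung libraries in the fit edgeR called 9, all negative (Nrg1, Srxn1, Hmox1, Mt2, Rnd1, Gdnf, Hspa1a, Dpys and Trim16). Leaving out peat flame 4 h replicate 5 gave 4 calls (Nrg1, Mt2, Rnd1 and Srxn1), and leaving out saline 4 h replicate 4, peat flame 4 h replicate 6, saline 24 h replicate 2 or peat flame 24 h replicate 6 gave 2. Each gene named by the rule kept the sign of its time change under all 32 alternatives. Beyond Nrg1, what follows therefore rests on the separate tests at each time, and a gene called at 1 time and not at the other is not shown to differ between them unless its time change is called.

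At 4 h 22 genes were called (0.167% of 13158), 21 higher (0.16%) and 1 lower in peat flame, and at 24 h 6 were called (0.0456%), all higher. An unadjusted p under 0.05 was found for 634 genes at 4 h and 712 at 24 h. If no gene differed, a share of 0.05 is expected on average, and the 4 h share was smaller and the 24 h share slightly larger. No gene was called at both times in this fit. DESeq2's Wald test called Cebpd, Tnfrsf9, Ccl7 and Tk1 at both, edgeR with all lung libraries called Saa1 at both, and edgeR without the 4 libraries of few genes called Ccl7 at both. The 21 genes called higher at 4 h had a median log2 difference of 1.74 there and of 0.0975 at 24 h (range -1.20 to 1.44), where 13 were above 0 and 4 had an unadjusted p under 0.05. The 6 genes called at 24 h had a median of 3.08 there and of 1.30 at 4 h (range 0.59 to 2.18), where all 6 were above 0 and 4 had an unadjusted p under 0.05. Over all genes the median was -0.0354 at 4 h and -0.0508 at 24 h. The choice of these genes by a call favours large values at the time of the call, and the values at the other time come from other animals. The 4 h count fell to 9, 11 and 12 without saline 4 h replicates 5, 2 and 3, and the 24 h count to 1, 2 and 3 without saline 24 h replicates 6, 3 and 5. Without the 4 libraries of few genes the counts were 43 and 5. The 24 h calls of Cxcl10 and Tnfrsf9 were then lost and Ccl2 was gained. At 4 h, where the libraries were the same, Nqo1, Myc, Junb, Sfn, Cxcl1, Csf2 and Ccl7 were among the genes gained.

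**Figure D1:**
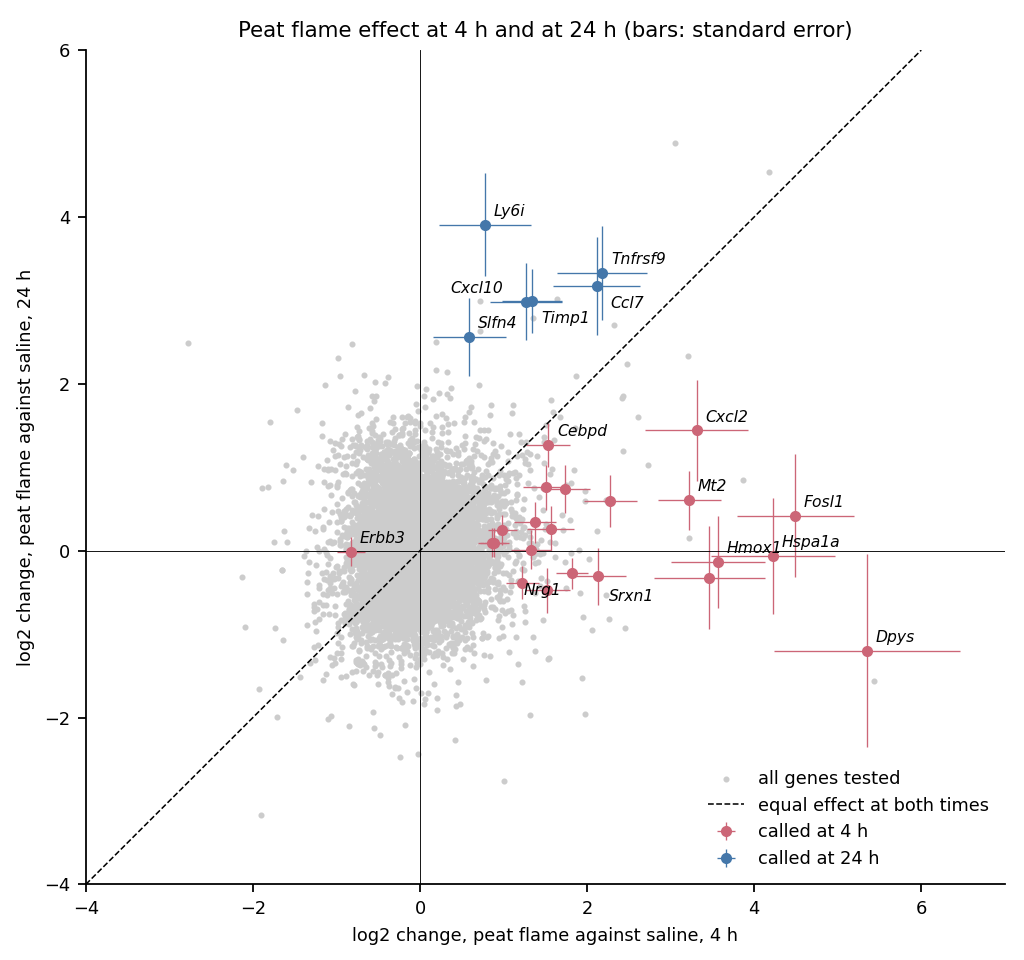
Log2 difference between peat flame and saline lungs at 4 h (horizontal axis) and at 24 h (vertical axis) for the 13158 genes tested, with genes called at 4 h in red, genes called at 24 h in blue, standard errors as bars and a dashed line where both differences are equal. The 21 genes called higher at 4 h lie below the dashed line, and the 6 called at 24 h lie above it with 4 h values between 0.59 and 2.18.

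The stress genes of the 4 h response were led by Hspa1a, an inducible chaperone of the Hsp70 family. Its lowest, median and highest levels at 4 h were 0.611, 2.83 and 11.5 CPM in saline and 53.4, 89.9 and 125.8 CPM in peat flame. The 24 h levels were 2.58, 5.80 and 20.3 CPM in saline and 0.248, 6.86 and 15.2 CPM in peat flame. All 6 exposed lungs were above all saline lungs at 4 h, and at 24 h the groups overlapped. Hspa1a rose by 4.22 ± 0.74 on the log2 scale at 4 h (adjusted p = 0.0106, edgeR) and differed by -0.07 ± 0.69 at 24 h (adjusted p = 0.971, edgeR). Its time change of -4.29 ± 0.99 did not pass (adjusted p = 0.386, edgeR). Hspa1b, its near-identical neighbour, for which it was not tested whether its probe also reads Hspa1a transcripts, rose by 3.46 ± 0.66 at 4 h and differed by -0.32 ± 0.62 at 24 h.

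Heat shock genes as a list were not uniformly higher. Of 14 tested, 12 had a difference above 0 at 4 h, and the pair Hspa1a and Hspa1b was called. The median was 0.287 at 4 h and -0.0817 at 24 h, and the median time change was -0.31, with 2 of 14 above 0, against -0.0448 and 46.5% above 0 over all genes. Without the 4 libraries of few genes the heat shock median at 24 h was -0.277, and 0 of 14 had a time change above 0. Hsp90aa1, the inducible cytosolic Hsp90, had a 4 h difference of 0.67, while Hspa8, the constitutive Hsc70, had -0.22.

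Hmox1, heme oxygenase 1, which breaks heme into biliverdin, iron and carbon monoxide, had levels of 2.82, 6.21 and 8.52 CPM in saline and 25.5, 77.7 and 110 CPM in peat flame at 4 h (lowest, median, highest). At 24 h the same levels were 2.68, 4.42 and 5.74 CPM in saline and 0, 3.84 and 8.89 CPM in peat flame. The 4 h groups did not overlap, and the 24 h groups did, with peat flame lungs both above and below the saline range. Hmox1 rose by 3.56 ± 0.56 at 4 h (adjusted p = 0.00433, edgeR), differed by -0.13 ± 0.55 at 24 h (adjusted p = 0.928) and had a time change of -3.70 ± 0.77 (adjusted p = 0.155). Srxn1, sulfiredoxin, which repairs overoxidised peroxiredoxins, had a median of 4.39 CPM in saline and 18.1 CPM in peat flame at 4 h, and 4.30 and 3.53 CPM at 24 h. Its 4 h rise was 2.13 ± 0.34 (adjusted p = 0.00433, edgeR) and its time change -2.44 ± 0.48 (adjusted p = 0.0899). Among further Nrf2 genes, Txnrd1 (thioredoxin reductase) rose by 1.38 ± 0.25 and Gclc (the catalytic subunit of the first glutathione enzyme) by 1.33 ± 0.24 at 4 h, and their 24 h differences were 0.34 ± 0.25 and 0.01 ± 0.24. Of the 25 Nrf2 genes tested, 3 were called at 4 h and none at 24 h, with medians of 0.384 and 0.0615. Of the 12 heme and iron genes, Hmox1 was the only 1 called at either time, and the list medians were 0.0317 at 4 h and 0.201 at 24 h. Nqo1, the quinone reductase of the same programme, was above all saline lungs in 6 of 6 peat flame lungs at 4 h without passing the test (log2 difference 1.47 ± 0.49, adjusted p = 0.568, edgeR), and it passed without the 4 libraries of few genes (adjusted p = 0.0214, edgeR).

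Mt2, a metallothionein that binds zinc and other metals, was at 23, 32.5 and 89.7 CPM in saline and at 161, 382 and 650 CPM in peat flame at 4 h. At 24 h it was at 11.9, 32.4 and 59.9 CPM and at 34.5, 46.1 and 69.2 CPM. Exposed lungs stood clear of saline lungs at 4 h, and 1 of 6 did so at 24 h. The rise at 4 h was 3.22 ± 0.38 (adjusted p = 0.000104, edgeR), the 24 h difference 0.60 ± 0.36 and the time change -2.62 ± 0.51 (adjusted p = 0.0899, edgeR). Its partner Mt1 had differences of 1.81 at 4 h and 0.81 at 24 h. Mt1 was not called in this fit, but at 4 h it was called by DESeq2's Wald test (adjusted p = 0.00397) and by edgeR with all lung libraries (adjusted p = 0.00477).

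The windows of 250 bases before the start of 5 of these genes are shown because the genes belong to programmes with known DNA elements and were called at different times (RefSeq, GRCm38.p6). They are Hspa1a (chr17:34972157-34972406, minus strand), Mt2 (chr8:94172368-94172617, plus strand), Srxn1 (chr2:152105274-152105523, plus strand), Timp1 (chrX:20869916-20870165, plus strand) and Cxcl10 (chr5:92348890-92349139, minus strand). Each is written 5′ to 3′ on the gene's strand up to the base before the start, with every match to a searched motif in capitals.
Hspa1a: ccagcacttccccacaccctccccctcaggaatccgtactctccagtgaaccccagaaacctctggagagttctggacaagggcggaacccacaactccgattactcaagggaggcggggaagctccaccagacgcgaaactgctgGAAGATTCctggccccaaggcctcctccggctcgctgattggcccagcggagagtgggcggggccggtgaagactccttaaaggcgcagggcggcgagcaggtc
Mt2: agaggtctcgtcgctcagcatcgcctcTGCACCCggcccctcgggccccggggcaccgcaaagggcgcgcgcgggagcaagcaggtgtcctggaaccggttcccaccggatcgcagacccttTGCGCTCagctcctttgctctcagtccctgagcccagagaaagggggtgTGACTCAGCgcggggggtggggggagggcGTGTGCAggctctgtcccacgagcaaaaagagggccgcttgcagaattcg
Srxn1: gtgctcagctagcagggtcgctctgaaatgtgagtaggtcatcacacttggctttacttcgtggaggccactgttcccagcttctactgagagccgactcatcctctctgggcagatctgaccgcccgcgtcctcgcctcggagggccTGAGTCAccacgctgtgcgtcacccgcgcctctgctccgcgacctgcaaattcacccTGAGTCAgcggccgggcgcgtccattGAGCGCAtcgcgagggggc
Timp1: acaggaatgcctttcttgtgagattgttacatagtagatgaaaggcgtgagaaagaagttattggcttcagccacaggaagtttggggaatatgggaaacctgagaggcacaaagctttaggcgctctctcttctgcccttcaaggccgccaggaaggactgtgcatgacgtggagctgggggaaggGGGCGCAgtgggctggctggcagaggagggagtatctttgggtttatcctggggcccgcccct
Cxcl10: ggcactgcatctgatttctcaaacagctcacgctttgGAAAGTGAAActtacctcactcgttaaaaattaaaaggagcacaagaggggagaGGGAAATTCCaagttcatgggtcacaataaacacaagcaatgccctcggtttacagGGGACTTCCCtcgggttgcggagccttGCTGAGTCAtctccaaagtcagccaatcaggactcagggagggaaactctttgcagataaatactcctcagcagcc
The motifs searched on both strands were a heat shock pair (GAANNTTC or TTCNNGAA), the metal response core (TGCACNC or TGCGCNC), AP-1 (TGANTCA), the antioxidant response core (TGACNNNGC), an interferon response pair (GAAA, any 2 bases, GAAA) and an NF-kB site (GGGA, any 2 bases, T, any base, CC). AP-1 and antioxidant matches can share bases, as they did in Mt2 and Cxcl10. Hspa1a held a heat shock match that ended 97 bases before its start. In Mt2 there were 3 metal response matches and an AP-1 match inside an antioxidant match, 79 to 71 bases before the start. Srxn1 held AP-1 matches that ended 96 and 39 bases before the start and a metal response match. Timp1 held a metal response match, and Cxcl10 an interferon match that ended 204 bases before the start, NF-kB matches that ended 150 and 94 bases before it and AP-1 and antioxidant matches that overlap. Shares of genes with a match in any of their windows were taken over 27025 gene symbols with windows of the same length. They were 14.5% for heat shock, 23.8% for metal response, 7.82% for AP-1, 11.5% for antioxidant, 3.46% for interferon and 3.8% for NF-kB. Of the 21 genes called higher at 4 h, 14 had a window, and 4, 6, 3, 4, 0 and 2 of them held these motifs in that order. Of the 6 called at 24 h, 4 had a window, with 0, 1, 3, 2, 1 and 2. These are matches of letters, not measured binding.

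Early transcription factors and signalling genes formed another group at 4 h. Fosl1, the AP-1 protein Fra-1, had 0, 0.574 and 3.06 CPM in saline and 12.7, 19.9 and 43.8 CPM in peat flame at 4 h. At 24 h it stayed below 1.5 CPM in every library of both groups. It rose by 4.49 ± 0.70 at 4 h (adjusted p = 0.00433, edgeR) and had a time change of -4.07 ± 1.01 (adjusted p = 0.565). Atf3, a stress-induced factor of the ATF family, rose by 1.74 ± 0.29 at 4 h (adjusted p = 0.00766, edgeR), and its 24 h difference was 0.74 ± 0.29, with a time change of -1.0 ± 0.40. Of 16 immediate early genes tested, these 2 were called at 4 h and 15 had a difference above 0. The list median was 0.769 at 4 h and 0.0768 at 24 h, and 1 of 16 had a time change above 0. Myc, Egr1 and Junb were above all saline lungs in 6 of 6 peat flame lungs at 4 h, with differences of 1.62, 1.37 and 1.07 at 4 h and of 0.09, -0.04 and 0.11 at 24 h. None of them passed in this fit, but DESeq2's Wald test called all of them at 4 h, and edgeR called Myc and Junb without the 4 libraries of few genes (adjusted p = 0.0176 and 0.00232). The list median at 24 h was then 0.216.

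Rnd1, whose product loosens the actin cytoskeleton, had 40.8, 47.3 and 55.9 CPM in saline and 75.5, 115.99 and 158 CPM in peat flame at 4 h. At 24 h it had 27.1, 50.0 and 57.1 CPM and 30.3, 34 and 45.5 CPM. The groups separated at 4 h and overlapped at 24 h, where the exposed lungs had the lower median. It rose by 1.23 ± 0.20 at 4 h (adjusted p = 0.00687, edgeR), differed by -0.38 ± 0.20 at 24 h and had the second smallest p in the time change (-1.61 ± 0.29, adjusted p = 0.0644, edgeR). Rhof, whose product takes part in forming filopodia, rose by 2.28 ± 0.32 at 4 h and differed by 0.59 ± 0.31 at 24 h. Stx11, a syntaxin of secretory granules, rose by 1.56 ± 0.28 and differed by 0.26 ± 0.27 at 24 h.

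Several genes were chosen after their values were seen. Gdnf, a neurotrophic growth factor, rose by 1.52 ± 0.27 at 4 h (adjusted p = 0.0106, edgeR), differed by -0.48 ± 0.27 at 24 h and had a time change of -2.0 ± 0.38 (adjusted p = 0.0899). Csrnp1, Sbno2, Ifrd1 and Dpys were also called at 4 h, with rises of 1.51, 0.89, 0.86 and 5.35. Of the 24 fits that left out a library, 22 called Csrnp1, 16 called Sbno2 and 12 called Ifrd1. Dpys was tested in 19 of those fits and called in 6. Dpys was at most 0.302 CPM in saline and 1.44 to 4.73 CPM in peat flame, so its log2 value is poorly fixed. The gene called lower at 4 h was Erbb3, which encodes a receptor for neuregulins. Its levels at 4 h were 23.7, 27.5 and 29.4 CPM in saline and 12.5, 13.8 and 19.2 CPM in peat flame. It fell by 0.83 ± 0.17 (adjusted p = 0.0434, edgeR), with 6 of 6 exposed lungs below all saline lungs, and differed by -0.01 ± 0.17 at 24 h. This call was kept in 10 of the 24 fits that left out a library.

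F3 and Camkk1, also chosen after their values were seen and not called in the edgeR fit, had differences of opposite sign at the 2 times. F3, tissue factor, which starts the clotting cascade, had a difference of 1.54 ± 0.44 at 4 h and -1.29 ± 0.48 at 24 h. Camkk1, a calcium-dependent kinase, had -0.83 ± 0.23 and 0.74 ± 0.23, and 6 of 6 peat flame lungs were above all saline lungs at 24 h. Their time changes were -2.83 ± 0.65 (adjusted p = 0.386, edgeR) and 1.56 ± 0.32 (adjusted p = 0.150, edgeR). DESeq2's Wald test called both time changes, with adjusted p = 0.00532 for F3 and 0.000883 for Camkk1.

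**Figure D2:**
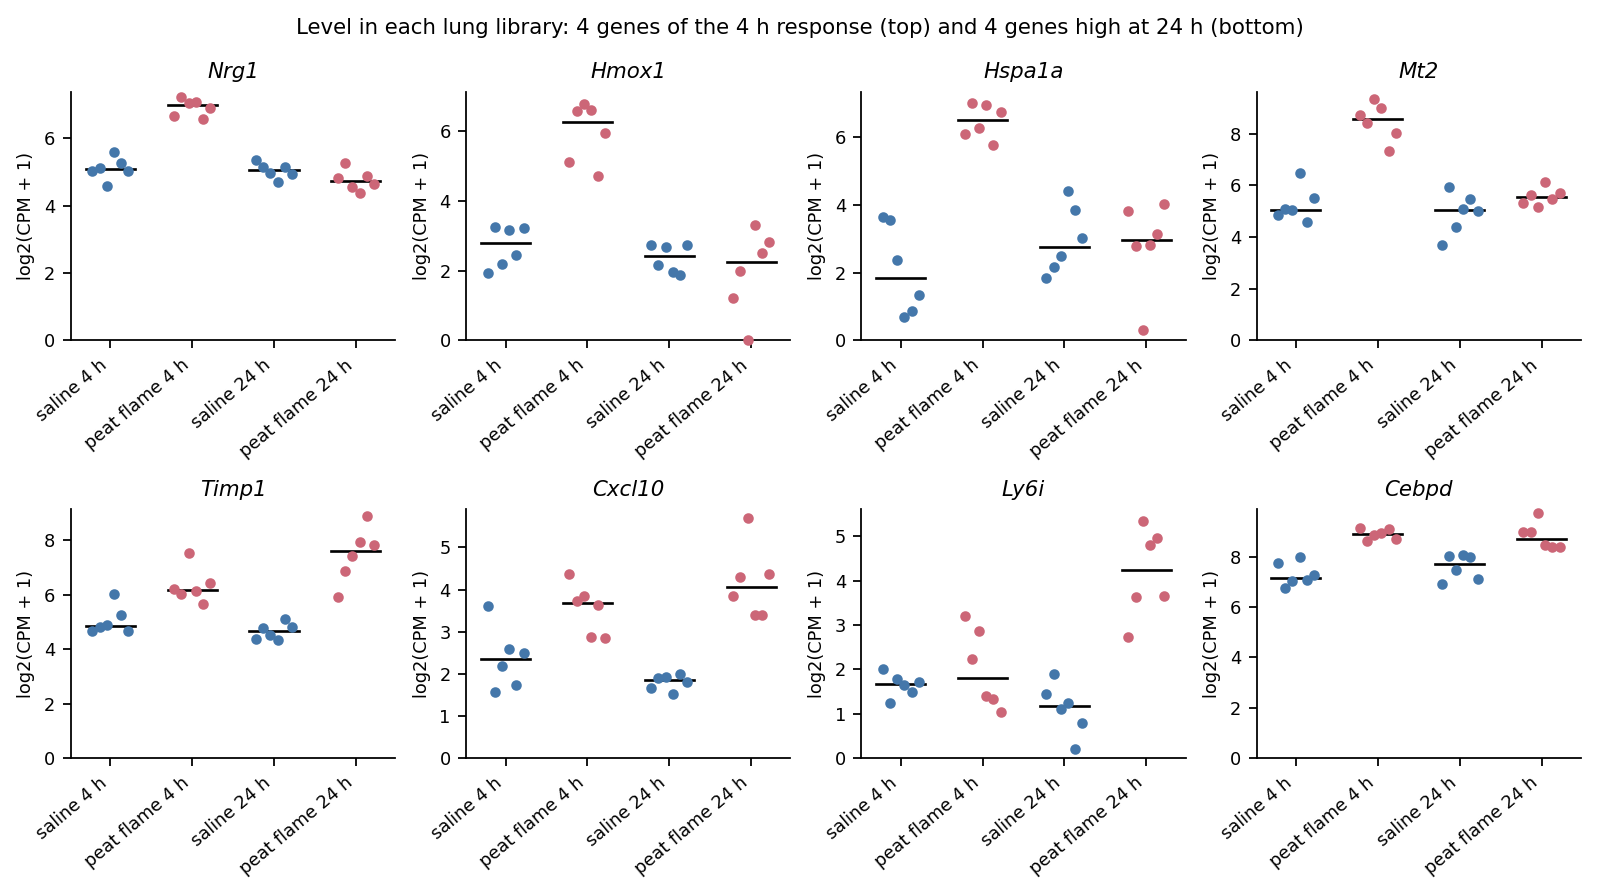
Level of 8 genes in each of the 24 lung libraries, as log2(CPM + 1), with a point for each mouse and a line at the median of each group of 6 (saline blue, peat flame red). In the top row the peat flame lungs stand above all saline lungs at 4 h, and at 24 h the groups overlap for each gene. In the bottom row they stand above all saline lungs at 24 h, and for Timp1, Cxcl10 and Cebpd most also do at 4 h.

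Timp1, an inhibitor of matrix metalloproteinases that is raised in injured lung, was the gene with the smallest p at 24 h. Its levels were 24.1, 28 and 63.3 CPM in saline and 48.9, 70.4 and 181 CPM in peat flame at 4 h. At 24 h they were 19.1, 24.3 and 33.2 CPM and 59.7, 197 and 476 CPM. All exposed lungs were above saline lungs at 24 h, and 5 of 6 were at 4 h. The difference was 1.34 ± 0.36 at 4 h (adjusted p = 0.250, edgeR) and 2.99 ± 0.39 at 24 h (adjusted p = 0.00107, edgeR). The time change of 1.65 ± 0.51 did not pass the adjustment over all genes (unadjusted p = 0.00359, adjusted p = 0.982, edgeR). A difference between the times is therefore not shown for Timp1. Timp1 was called at 24 h in all 24 fits that left out a library. Timp2 and Timp3 of the same family had 24 h differences of -0.87 and -0.79 and were not called.

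The other 5 genes called at 24 h encode chemokines, a receptor and genes linked to interferon and myeloid cells. Cxcl10, a chemokine for T cells and monocytes, had 1.98, 4.11 and 11.3 CPM in saline and 6.17, 11.9 and 19.7 CPM in peat flame at 4 h, and 1.89, 2.60 and 2.98 CPM and 9.47, 16 and 50.9 CPM at 24 h. The 24 h groups were separate, and at 4 h 4 of 6 exposed lungs were above all saline lungs. Its difference was 1.27 ± 0.43 at 4 h and 2.98 ± 0.46 at 24 h (adjusted p = 0.00812, edgeR), with a time change of 1.72 ± 0.62 (adjusted p = 0.982). Ly6i, a surface protein of the Ly6 family, had a median of 2.2 and 2.67 CPM at 4 h and of 1.26 and 19.3 CPM at 24 h in saline and peat flame. Its difference was 0.78 ± 0.55 at 4 h and 3.91 ± 0.62 at 24 h (adjusted p = 0.00812, edgeR). Its time change, 3.13 ± 0.80, was the largest positive value among the genes named by the rule (adjusted p = 0.578, edgeR). Slfn4, a Schlafen gene of myeloid cells, had a difference of 0.59 ± 0.44 at 4 h and of 2.56 ± 0.46 at 24 h (adjusted p = 0.0351, edgeR). Of the 24 fits that left out a library, 23 called Cxcl10 at 24 h, 22 called Ly6i and 12 called Slfn4.

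Tnfrsf9 and Ccl7 had sizeable values at both times. Tnfrsf9, the costimulatory receptor 4-1BB, had a difference of 2.18 ± 0.53 at 4 h (adjusted p = 0.164, edgeR) and 3.33 ± 0.56 at 24 h (adjusted p = 0.0163). Ccl7, a monocyte chemokine, had 2.11 ± 0.52 (adjusted p = 0.164) and 3.17 ± 0.59 (adjusted p = 0.0399, edgeR), and its exposed lungs were above all saline lungs in 6 of 6 animals at both times. The 24 h call of Tnfrsf9 was kept in 19 of the 24 fits that left out a library, and that of Ccl7 in 7. Cebpd, a transcription factor of inflammation and glucocorticoid responses, went the other way in its calls. It had 106.3, 142 and 256 CPM in saline and 394, 477 and 556 CPM in peat flame at 4 h, and 120, 213 and 270 CPM and 330, 427 and 850 CPM at 24 h. Neither time showed overlap. It rose by 1.54 ± 0.27 at 4 h (adjusted p = 0.0102, edgeR), its 24 h difference was 1.26 ± 0.26 (adjusted p = 0.138), and its time change was -0.27 ± 0.37 (unadjusted p = 0.470).

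All 17 chemokine and cytokine genes tested had a difference above 0 at 4 h and 14 did at 24 h, with medians of 1.27 and 1.44. Cxcl2, a neutrophil chemokine, was called at 4 h, and Cxcl10 and Ccl7 at 24 h. Cxcl2 had a median of 4.82 CPM in saline and 63.3 CPM in peat flame at 4 h, with 5 of 6 exposed lungs above all saline lungs, and 3.61 and 10.6 CPM at 24 h. It rose by 3.31 ± 0.62 at 4 h (adjusted p = 0.0157, edgeR), and its 24 h difference was 1.44 ± 0.60. The neutrophil chemokine Cxcl1 had differences of 2.42 and 1.83, the growth factor Csf2 had 2.61 and 1.60, and the monocyte chemokine Ccl2 had 1.64 and 3.02, none called in the edgeR fit. At 4 h DESeq2's Wald test called Cxcl1 and Csf2 (adjusted p = 0.00206 and 0.000559), and so did edgeR without the 4 libraries of few genes (0.0143 and 0.025), which then also called Ccl2 at 24 h (4.00 ± 0.69, adjusted p = 0.0326). The median time change of the list was -0.0752, with 8 of 17 above 0, and without those 4 libraries it was 0.51, with 9 of 17 above 0. Of 16 NF-kB feedback genes, 14 were above 0 at 4 h (median 0.903) and 12 at 24 h (median 0.266), and none was called in the edgeR fit. At 4 h DESeq2's Wald test called Relb and Tnip3 (adjusted p = 0.00475 and 0.00857), and edgeR without the 4 libraries of few genes called Tnfaip3 and Relb (0.00528 and 0.0214).

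The antiviral interferon-stimulated genes had the highest median time change of the lists with at least 5 genes tested, and cardiac muscle genes had the lowest (-0.829 over 9 genes, none called). All 21 tested had a time change above 0, with a median of 0.803, and none was called. At 4 h 6 of 21 were above 0 (median -0.174) and at 24 h 20 of 21 were (median 0.563), with Cxcl10 called. Usp18, which restrains interferon signalling, had a median of 80.5 CPM in saline and 59.1 CPM in peat flame at 4 h, and 94.4 and 194 CPM at 24 h. Oasl2, of the oligoadenylate synthetase family, had 80.8 and 76.4 CPM at 4 h and 85.2 and 155 CPM at 24 h. Their time changes were 1.43 and 0.97. All 21 were read in the same 24 animals, so they are not independent of each other. The list was also chosen with earlier results of these data known. Over the 31 alternatives at gene level 17 to 22 members were above 0, with medians of 0.487 to 1.19, and the highest median came without the 4 libraries of few genes.

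Acute phase genes had a median difference of 0.199 at 4 h and 1.27 at 24 h, with 9 of 12 above 0 in the time change (median 0.662) and none called. Saa3, serum amyloid A3, had a median of 6.79 CPM in saline and 21.3 CPM in peat flame at 4 h and of 1.60 and 51.8 CPM at 24 h. Its exposed lungs spread from 4.47 to 265.5 CPM at 24 h, and its 24 h difference of 4.89 ± 1.21 did not pass (adjusted p = 0.455, edgeR). DESeq2's Wald test called Saa3 at 24 h (adjusted p = 0.00108), as did edgeR with all lung libraries (0.0314). C3, the central complement component, and Hp, haptoglobin, had 24 h differences of 0.95 and 0.84 against -0.06 and -0.00 at 4 h. Without the 4 libraries of few genes the acute phase median was 0.406 at 4 h and 2.01 at 24 h.

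Other lists had higher medians at 4 h than at 24 h. Endothelial activation genes had 0.726 and -0.0228, and growth factor and TNF superfamily genes 0.561 and -0.341. Injured alveolar epithelium markers had 0.661 and 0.244, with Sfn, an epithelial 14-3-3 protein, above all saline lungs in 6 of 6 exposed lungs at 4 h (difference 1.92 ± 0.48, adjusted p = 0.176, edgeR, and 0.00254 without the 4 libraries of few genes) and at -0.51 ± 0.48 at 24 h. The tissue factor, urokinase and protease inhibitor genes had 0.638 and 0.128. No member of these 4 lists was called in the edgeR fit except Timp1 at 24 h. The growth factor and TNF superfamily list did not hold Nrg1 and Gdnf, called at 4 h, or Tnfrsf9, called at 24 h. Without the 4 libraries of few genes the 24 h medians turned to 0.194 for endothelial activation (7 of 12 above 0) and 0.0889 for growth factor and TNF superfamily genes (9 of 13), and that of the tissue factor list was 0.363.

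**Figure D3:**
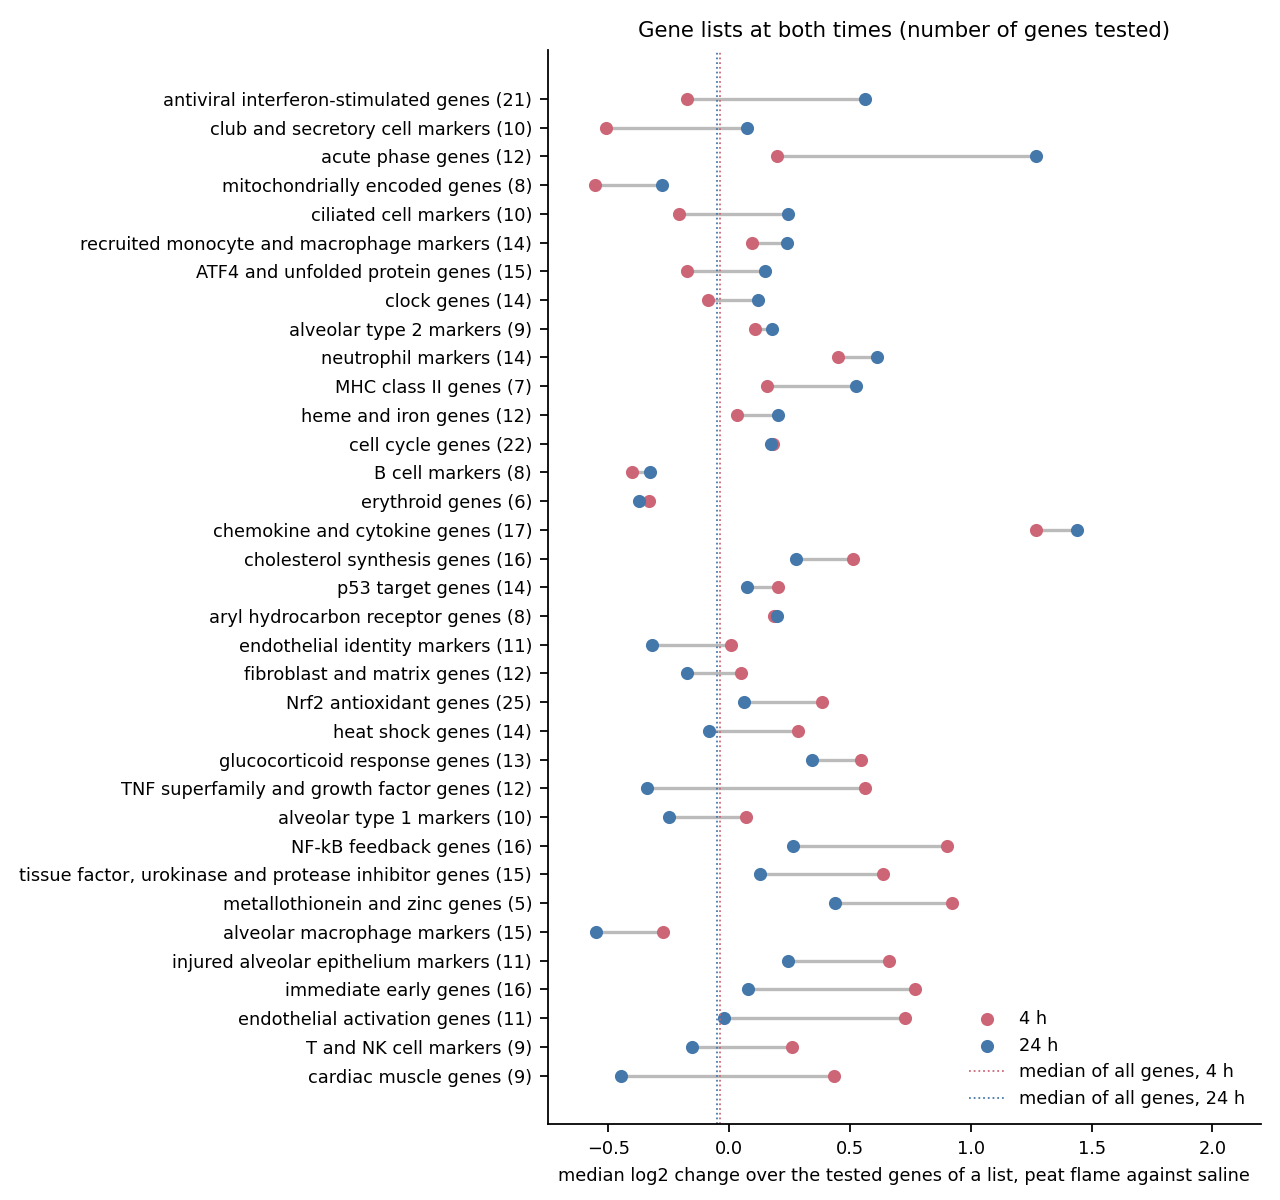
Median log2 difference between peat flame and saline over the tested genes of 35 lists at 4 h (red) and 24 h (blue), ordered by the median time change, with the number of genes tested in brackets and the medians of all genes as dotted lines. Interferon-stimulated genes had -0.174 at 4 h and 0.563 at 24 h, immediate early genes had 0.769 and 0.0768, and chemokine and cytokine genes had 1.27 and 1.44.

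Markers of the cell types that whole lung holds were measured beside these genes, and none was called at either time in the edgeR fit. Of 14 neutrophil markers tested, 12 had a difference above 0 at 4 h (median 0.449) and 13 at 24 h (median 0.614). Without the 4 libraries of few genes the neutrophil medians were 0.671 and 1.11, with 16 of 16 above 0 at 24 h. Their summed level was 321.9 to 681 CPM in saline and 335.9 to 877.6 CPM in peat flame at 4 h, and 220.8 to 430 CPM and 384.7 to 690.2 CPM at 24 h. S100a8, a calprotectin gene of neutrophils, had medians of 5.54 CPM in saline and 5.76 CPM in peat flame at 4 h, and of 0.795 and 1.79 CPM at 24 h. Alveolar macrophage markers had medians of -0.272 and -0.549, with 3 and 2 of 15 above 0 (-0.244 at 24 h without the 4 libraries of few genes). Ear1 and Ear2 had a median of 0 CPM in peat flame at 24 h, where replicates 1, 2 and 3 were among those 4 libraries. The summed level of the alveolar macrophage markers was 488.3 to 3293 CPM in saline and 596.2 to 1941 CPM in peat flame at 4 h. At 24 h it was 603.9 to 1698 CPM and 297.6 to 1233 CPM. Recruited monocyte and macrophage markers had medians of 0.0948 and 0.241. Club cell markers had -0.51 and 0.0754, and all 8 mitochondrially encoded genes tested were below 0 at 4 h (median -0.554). At 24 h 7 of 8 were below 0 (median -0.279), but without the 4 libraries of few genes 5 of 8 were above 0 (median 0.156). The part of these markers in the results on chemokines, acute phase genes and Timp1 was not tested.

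The time change of peat flame was compared with that of 2 other smokes, in a fit of 48 libraries of PeatFlame, PeatSmolder, EucalyptusFlame and Saline lungs, 6 per group and time. In these contrasts saline cancels, so they compare the 24 h minus 4 h change of exposed lungs. Against peat smolder 1 gene was called (0.00732% of 13666, with 551 at an unadjusted p under 0.05), which was Rnd1. The 551 were a smaller share of the genes than the 0.05 expected on average if no gene differed. Peat smolder lungs had 41.8, 44.2 and 71.8 CPM of Rnd1 at 4 h and 44.7, 61.2 and 78.5 CPM at 24 h. In the same fit peat flame lungs had 75.6, 116.7 and 162 CPM at 4 h and 31.3, 34.9 and 46.1 CPM at 24 h. Rnd1 levels thus fell with time in peat flame relative to peat smolder, by 1.95 ± 0.30 on the log2 scale (adjusted p = 0.000704, edgeR), and this was called in all 48 fits that left out a library.

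Against eucalyptus flame 3 genes were called (0.022%, with 1587 at an unadjusted p under 0.05), 1 with a positive difference (0.00732%) and 2 with a negative difference (0.0146%). Rnd1 had a difference in time change of -1.56 ± 0.30 and Rbms2, an RNA-binding protein gene, of -1.80 ± 0.35 (both adjusted p = 0.0231, edgeR). Rbms2 had median levels of 12.6 CPM at 4 h and 4.15 CPM at 24 h in peat flame and of 8.42 and 10.3 CPM in eucalyptus flame. The third was Cyp1a1, the cytochrome P450 that the aryl hydrocarbon receptor induces (3.51 ± 0.65, adjusted p = 0.0231, edgeR). Its levels in eucalyptus flame lungs were 462, 494 and 710 CPM at 4 h and 10.5, 17.5 and 37.6 CPM at 24 h. In peat flame lungs they were 2.82, 7.35 and 14 CPM and 0.961, 2.67 and 8.46 CPM, below all eucalyptus flame lungs at both times. The count of 3 was 0 without the libraries of fewer than 14000 genes. Besides the 4 named above, these were eucalyptus flame 4 h replicate 3 (13734 genes) and 24 h replicate 5 (10172 genes, 4.43 M counts). The count was also 0 without each of peat flame 4 h replicates 2 and 4, eucalyptus flame 4 h replicates 4 and 5, peat flame 24 h replicates 2 and 3 and eucalyptus flame 24 h replicates 1 and 2. It was 1 without peat flame 4 h replicate 3 or peat flame 24 h replicates 1 or 5, and 5 without eucalyptus flame 24 h replicate 5.

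Nrg1, Hmox1, Hspa1a and Timp1 were not called against either smoke by edgeR in this fit, while DESeq2's Wald test called Nrg1 (-1.53, adjusted p = 0.00916) and Hmox1 (-2.91, adjusted p = 0.0269) against eucalyptus flame. Nrg1 had a difference in time change of -1.36 ± 0.32 against eucalyptus flame (adjusted p = 0.211, edgeR) and of -1.32 ± 0.31 against peat smolder (adjusted p = 0.681). Its 4 h medians were 127.8 CPM in peat flame, 42.7 CPM in eucalyptus flame and 44.4 CPM in peat smolder, and its 24 h medians were 26.2, 24.2 and 24.1 CPM. Peat flame lungs at 4 h, from 92.5 to 151 CPM, lay above the highest lung of the other smokes, at 79.6 CPM. Hmox1 had -2.78 ± 0.68 and -2.83 ± 0.68, and Hspa1a -2.68 ± 0.91 and -3.15 ± 0.92. Timp1 had 1.0 ± 0.58 and 1.82 ± 0.56, with 24 h medians of 201 CPM in peat flame, 56.3 CPM in eucalyptus flame and 32.2 CPM in peat smolder. The values of Nrg1, Hmox1, Hspa1a and Timp1 against both smokes use the same peat flame lungs and are not independent of each other.

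**Figure D4:**
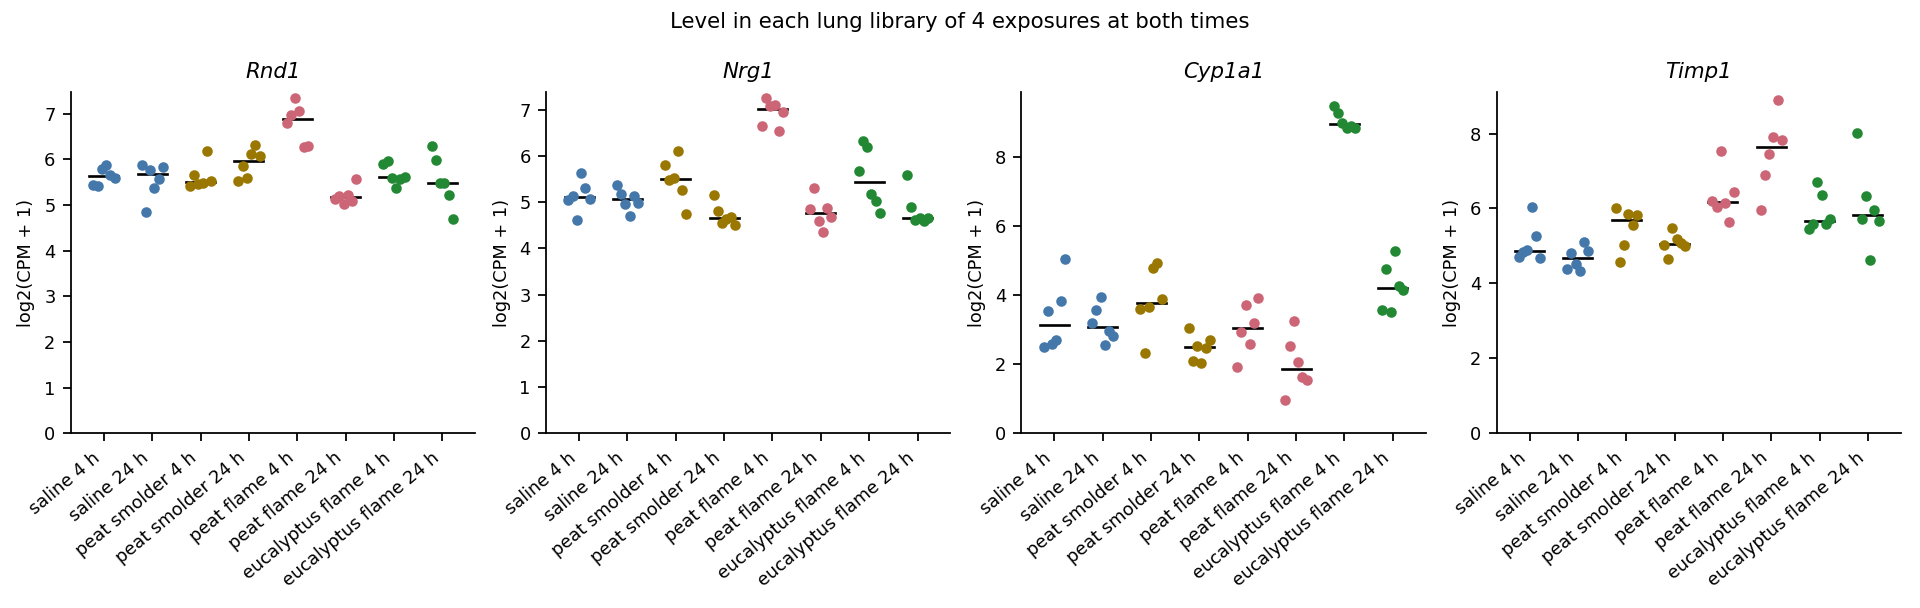
Level of Rnd1, Nrg1, Cyp1a1 and Timp1 in each lung library of 4 exposures at 4 h and 24 h, as log2(CPM + 1), with a point for each mouse and a line at the median of 6. Peat flame at 4 h has the highest Rnd1 and Nrg1 medians (116.7 and 127.8 CPM), eucalyptus flame at 4 h the highest Cyp1a1 median (494 CPM) and peat flame at 24 h the highest Timp1 median (201 CPM).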

How the data were processed

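The authors deposited raw counts per probe. Bowtie and DESeq2 appear in the submitters' processing notes with no version or role, and the build is not given in the sources used here. Per the labels' protocols the platform was TempO-Seq, and a 3' library kit is also named, so the chemistry is stated in 2 ways. Its 30146 probe rows were summed to 21450 symbols. The 24 libraries were fitted in edgeR 4.0.16 (R 4.3.3) by quasi-likelihood F tests with robust moderation, TMM factors, filterByExpr by group and a plate term. The other smokes were compared in a fit of 48 libraries. Benjamini-Hochberg adjustment ran over all genes tested, with calls under 0.05. Standard errors are the log2 value over the root of its F. Simulated data were used to test the time change in the fit of 24 libraries, not the other contrasts, and the outcome is not given here.

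The groups, markers and 36 lists were chosen with earlier results of these data known. Named genes had to be called and reach a mean of 5 CPM in a group. They were the 12 with the largest change at each time and in each direction of the time change, up to 4 called members of a list (otherwise 2 called at 4 h or 24 h) and up to 6 genes against each other smoke, without clone names. Hmox1, Hspa1a and Timp1 were named in any case, and every other gene, including list members given as examples, was chosen after its values were seen. The alternatives were DESeq2 size factors, the Wald test of DESeq2 1.42.0, a filter of 1 count, probes alone, all lung libraries, no plate term, 1 plate per time, each library left out and, chosen after seeing the data, libraries under 14000 detected genes left out.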

Additional observations from a re-analysis of the deposited data

Results flagged for a closer look

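Over the 4 groups of each of 28 genes, in 7 groups of values 1 library lay far from the other 5. Chance flags about 1 in 20 such groups. Of the 7, 4 were peat flame 24 h replicate 3, the library with 12145 detected genes. Its levels were 0.0 CPM for Fosl1 (next lowest 0.670), 0.248 CPM for Hspa1a (5.81), 1.24 CPM for Cxcl2 (7.88) and 0.0 CPM for F3 (1.07). Stx11 was at 25.7 CPM in peat flame 24 h replicate 6, where the next lowest library had 56 CPM. In saline 24 h replicate 6, the library without which a single gene was called at 24 h, Gclc was at 59.1 CPM (next highest 40.3) and Gdnf at 3.95 CPM (next lowest 7.03).

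The effect of an exposure or its time change differed between groups by a test of the difference for 4 genes. Nrg1 differed between 24 h and 4 h by -2.10 on the log2 scale. The time change of peat flame differed from that of eucalyptus flame by 3.51 for Cyp1a1, -1.80 for Rbms2 and -1.56 for Rnd1, and from that of peat smolder by -1.95 for Rnd1.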

How the results depend on the processing

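Calls of the time change numbered 1 in the chosen fit, 14 with DESeq2's Wald test, 0 with probes alone, 9 with all lung libraries in 1 fit and 2 with no plate term. They ranged from 1 to 4 when a library was left out. At 4 h the 22 calls became 73 with DESeq2, 43 with all lung libraries and 43 without the libraries of few genes, and 9 to 25 when a library was left out. At 24 h the 6 calls became 21 with DESeq2, 10 with all lung libraries and 1 to 6 when a library was left out. Against eucalyptus flame the 3 calls became 35 with DESeq2, 1 with no low-count filter, 1 with probes alone, 1 with only plate 2 at 24 h, 0 without the libraries of few genes and 0 to 5 when a library was left out. Against peat smolder the 1 call became 2 with DESeq2 and 2 with all lung libraries, and stayed at 1 (lowest 1, highest 1) when a library was left out. Probes alone, fewer libraries and more libraries change the counts, genes and spread that enter a fit, and otherwise the cause was not tested. None of the 28 genes followed reversed its time change.

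No paired analysis was possible because the labels give animal numbers but no replicate number shared between groups. Precision differed between genes: the 4 h standard error was 0.19 for Nrg1 and 1.12 for Dpys, a gene of few counts. The smallest detectable difference was not computed. All 4 h libraries shared a plate that held 1 library of each 24 h group.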

Other observations

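Some genes not described above were chosen after their values were seen, and none of them was called in the edgeR fit. Tk1, thymidine kinase 1, which salvages thymidine for DNA synthesis, had a difference of 1.19 ± 0.27 at 4 h (adjusted p = 0.107, edgeR) and 1.40 ± 0.28 at 24 h (adjusted p = 0.0715, edgeR). Exposed lungs were above all saline lungs in 6 of 6 animals at 4 h and 5 of 6 at 24 h. Its time change was 0.21 ± 0.38. Nme1, a nucleoside diphosphate kinase, had 0.36 ± 0.17 and 0.73 ± 0.17 (adjusted p = 0.378 at 24 h, edgeR), with 6 of 6 exposed lungs above all saline lungs at 24 h. The cell cycle list had medians of 0.180 and 0.175 over 22 genes, and none was called in the edgeR fit. DESeq2's Wald test called Tk1 at both times (adjusted p = 0.00286 and 0.000293) and Nme1 at 24 h (0.0267).

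Acpp, an acid phosphatase, had 4 h medians of 1.27 CPM in saline and 1.38 CPM in peat flame and 24 h medians of 1.11 and 5.68 CPM, with a 24 h difference of 2.51 ± 0.60 (adjusted p = 0.451, edgeR, and 0.0198 by DESeq2's Wald test). Orm2, an acute phase plasma protein, had a time change of 3.29 ± 1.09 (adjusted p = 0.982, edgeR), with 5 of 6 exposed lungs above all saline lungs at 24 h and none at 4 h. Trf, transferrin, had a difference of -0.43 ± 0.19 at 4 h and 0.61 ± 0.19 at 24 h, and its time change of 1.04 ± 0.27 was not called (adjusted p = 0.578, edgeR).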
